A study of Mus musculus with 8 samples.

Results

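The KMT2 and SETD1 enzymes write methyl groups on lysine 4 of histone H3 (H3K4), and 10 genes of their complexes were examined here among the 21058 genes of the deposited RNA-seq tables of mouse pachytene spermatocytes. The genes were taken by symbol and all 10 were in the tables. Of these, 6 encode the methyltransferases themselves (*Kmt2a*, *Kmt2b*, *Kmt2c*, *Kmt2d*, *Setd1a* and *Setd1b*) and 4 encode partner subunits (*Cxxc1*, *Wdr5*, *Ash2l* and *Rbbp5*). The study asked what the loss of ARID1A, a putative DNA-binding subunit of the SWI/SNF BAF chromatin remodeler, does in meiotic male germ cells. It compared 4 *Arid1a* WT with 4 *Arid1a* cKO libraries of spermatocytes purified from adult testes by Sta-Put, in which cells of a testis suspension part by size as they settle under gravity. *Arid1a* WT males were Arid1a fl/fl or Arid1a fl/+ without Cre, and *Arid1a* cKO males were Arid1a fl/fl; Stra8-Cre Tg/0. The floxed mice were of a CD1 strain background. Floxed *Arid1a* is therefore common to both genotypes, and Cre is confined to the mutants. The *Stra8* promoter drives Cre in spermatogonia, before the stage that was sequenced. The methods describe cells pooled from the testes of several males. The study also describes excision as inefficient, so that some pachytene spermatocytes of the mutant males still made ARID1A.

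H3K4 trimethylation (H3K4me3) marks active promoters, and monomethylation marks enhancers. In mammals, SETD1A and SETD1B place most of the trimethylation at promoters, where CXXC1 brings them to unmethylated CpG islands. KMT2A and KMT2B act at selected promoters, and KMT2C and KMT2D monomethylate enhancers. None of these enzymes is fully active alone: each works on a shared core of WDR5, RBBP5, ASH2L and DPY30. In early meiotic prophase a separate enzyme, PRDM9, places H3K4me3 at the sites of meiotic recombination.

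Libraries held 15850961 to 22044507 estimated counts. Transcript abundance is given as CPM, the usual depth-scaled counts, with TMM-adjusted library sizes, and compared with edgeR's quasi-likelihood test over the 17643 genes with at least 10 counts in all. Genes with an adjusted p (Benjamini-Hochberg) up to 0.05 were called. Levels of different genes are compared in TPM, which is scaled for transcript length. The targeted gene *Arid1a* was at 98.8 to 128 CPM in *Arid1a* WT and 76.4 to 82.9 CPM in *Arid1a* cKO libraries (log2 fold change -0.51, standard error 0.07, adjusted p = 2.31e-05). Pachytene markers summed to 4903 to 5324 TPM in *Arid1a* WT and 3266 to 3609 TPM in *Arid1a* cKO libraries, and 8 of these 12 genes were called lower and 2 higher. All 15 markers of round and elongating spermatids were higher in *Arid1a* cKO, with sums of 6189 to 7048 TPM against 25503 to 27334 TPM. All 7 tested markers of Sertoli cells, the supporting somatic cells, were lower (552 to 619 TPM against 157 to 164 TPM, with *Rhox5* listed at 0). Those of Leydig and peritubular cells summed to 80.05 to 95.7 TPM against 12.6 to 15.6 TPM, with 5 of 7 lower and 2 higher. Spermatogonial markers summed to 130 to 140 TPM against 139 to 149 TPM (8 of 10 higher, 1 lower), and leptotene and zygotene markers to 179 to 208 TPM against 164 to 174 TPM (5 of 8 higher, 3 lower). Those of macrophages and blood summed to 5.84 to 8.08 TPM against 7.51 to 9.25 TPM (5 of 7 higher, 1 lower). In these bulk samples, fewer cells of a type and less RNA per cell cannot be told apart. The part of these differences in the results below was not tested.

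The *Arid1a* WT libraries did not spread evenly, and the methyltransferase genes followed that spread. All 6 methyltransferase genes lay below the *Arid1a* WT mean in *Arid1a* WT 1 (by 0.09 to 0.35 on the log2 CPM scale) and *Arid1a* WT 4 (by 0.24 to 0.35). All 6 lay above it in *Arid1a* WT 2 (by 0.16 to 0.37) and *Arid1a* WT 3 (by 0.21 to 0.29). In *Arid1a* cKO 1 all 6 were below the *Arid1a* cKO mean, by 0.05 to 0.34, and in *Arid1a* cKO 2 and 3 all 6 were above it. The 4 partner subunits did not share the pattern: in *Arid1a* WT 4, for example, their deviations ran from -0.01 to 0.12. The longest annotated methyltransferase transcripts are 6487 nt for *Setd1a* and 8469 to 19823 nt for the other 5. The median of 833 genes with a longest transcript of at least 8000 nt deviated by -0.06, 0.07, 0.09 and -0.10 in *Arid1a* WT 1 to 4, the same signs at a smaller size. The part of transcript length in this spread was not tested. Calls among the 10 genes that turn on *Arid1a* WT 2 and 3 are given below with and without them.

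**Figure D1:**
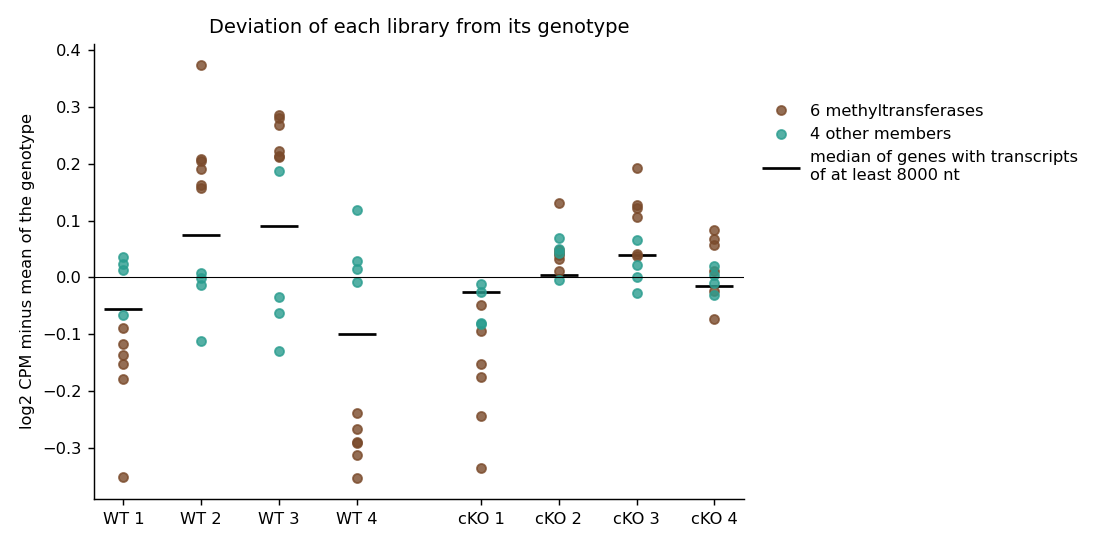
Deviation of each library from the mean of its genotype, in log2 CPM, for the 6 methyltransferase genes (brown points), the 4 partner subunits (green points) and the median of genes with a longest transcript of at least 8000 nt (black dashes). The 6 methyltransferase genes lie together below 0 in *Arid1a* WT 1 and 4 and above 0 in *Arid1a* WT 2 and 3.

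In the mutant spermatocytes, 1 of the 10 genes was called higher than in *Arid1a* WT (*Kmt2a*), 7 were called lower (*Kmt2b*, *Kmt2d*, *Setd1a*, *Setd1b*, *Cxxc1*, *Ash2l* and *Rbbp5*), and *Kmt2c* and *Wdr5* were not called. All 10 passed the filter on low counts. Calls were common across the transcriptome: 74% of all genes tested were called, 36.5% higher and 37.5% lower, so 8 calls among 10 genes is close to the background. The CPM of the genotypes did not overlap for 7 of the 10 genes (1 higher and 6 lower), against 68.9% of all genes tested (34% higher and 34.9% lower). The median log2 fold change was -0.36 over the 10 genes and -0.02 over all genes tested. The median size of the difference was smaller than that of genes in general, 0.45 against 0.76 log2 units. A difference as large as that of *Kmt2d* was seen in 5.32% of genes tested, as large as that of *Kmt2a* in 29.5%, and as large as that of *Kmt2b* in 30.5%.

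**Figure D2:**
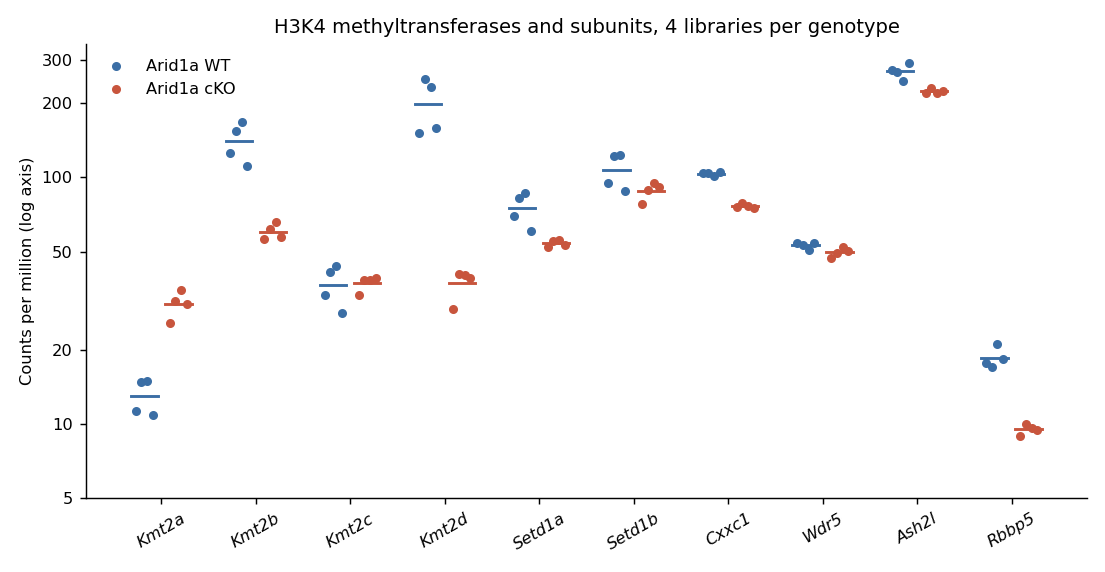
Transcript abundance of the 10 genes in each library, in CPM on a log axis, with *Arid1a* WT in blue, *Arid1a* cKO in red and a line at each mean. The genotypes are far apart for *Kmt2d*, *Kmt2a*, *Kmt2b* and *Rbbp5*, and overlap for *Kmt2c*, *Setd1b* and *Wdr5*.

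The enhancer enzymes KMT2C and KMT2D are close paralogues, and their transcripts parted. *Kmt2d* (Entrez 381022, chromosome 15, 98831669 to 98874077 of GRCm38.p6) was at 152, 251, 233 and 158 CPM in *Arid1a* WT 1 to 4 and at 29.3, 40.5, 40.3 and 39.3 CPM in *Arid1a* cKO 1 to 4. Every mutant library was far below every control library, and *Arid1a* cKO 1 was the lowest of all. The mean fell from 198 ± 50.8 CPM to 37.4 ± 5.38 CPM (SD, n = 4 each), a 5.31-fold difference (log2 fold change -2.41, standard error 0.16, adjusted p = 4.21e-09). *Kmt2c* (Entrez 231051, chromosome 5, 25271795 to 25498855) was at 33.2, 41.2, 43.8 and 28.2 CPM in *Arid1a* WT and at 33.5, 38.5, 38.2 and 39.0 CPM in *Arid1a* cKO. The *Arid1a* cKO values lay within the *Arid1a* WT range. Its log2 fold change was 0.03 (95% interval -0.19 to 0.25, adjusted p = 0.835). Without *Arid1a* WT 2 and 3 together, *Kmt2c* was called higher, with a log2 fold change of 0.28 (adjusted p = 0.00229), whereas that of *Kmt2d* kept its call.

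Per length of transcript, *Kmt2d* RNA outnumbered *Kmt2c* RNA in control cells and was the scarcer of the pair in mutant cells. The TPM ratio of *Kmt2d* to *Kmt2c* was 4.50, 5.28, 4.51 and 5.47 in *Arid1a* WT 1 to 4, and 0.593, 0.649, 0.902 and 0.846 in *Arid1a* cKO 1 to 4. The ratio is taken within a library, so that it does not depend on how libraries are scaled to each other. By TPM the order of this pair is thus the reverse in all 4 mutant libraries. The reversal depends on the scaling for length: in CPM *Kmt2d* stayed slightly above *Kmt2c* in *Arid1a* cKO 2, 3 and 4, and the relative transcript length by which *Kmt2d* is scaled ran from 4.83 to 7.52 among the mutant libraries. The direction of the change in the ratio did not depend on it, but its size did, with a log2 difference of -2.74 in TPM and -2.43 in CPM.

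The transcripts of KMT2A and KMT2B, the paralogues related to fly Trithorax, moved in opposite directions. *Kmt2a* (Entrez 214162, chromosome 9, 44803355 to 44881352) was at 11.3, 14.8, 14.9 and 10.9 CPM in *Arid1a* WT 1 to 4 and at 25.7, 31.4, 34.8 and 30.7 CPM in *Arid1a* cKO 1 to 4. The lowest mutant library was above the highest control library. It rose 2.36-fold, from 13.0 ± 2.18 CPM to 30.7 ± 3.76 CPM (SD, n = 4 each; log2 fold change 1.24, standard error 0.11, adjusted p = 1.58e-07). Tested with limma on log2(TPM + 1), a scale that compresses genes near 1 TPM, the difference was 0.67, and on log2(TPM + 0.1) it was 1.02. *Kmt2b* (Entrez 75410, chromosome 7, 30568855 to 30589056) was at 126, 154, 168 and 111 CPM in *Arid1a* WT and at 56.2, 61.8, 65.7 and 57.1 CPM in *Arid1a* cKO. The groups did not overlap here either, in the other direction. It fell 2.32-fold, from 140 ± 26.1 CPM to 60.2 ± 4.37 CPM (SD, n = 4 each; log2 fold change -1.21, standard error 0.11, adjusted p = 1.23e-07). With limma the *Kmt2b* difference was larger, at -1.74 on log2(TPM + 1) and -1.82 on log2(TPM + 0.1). The TPM ratio of *Kmt2b* to *Kmt2a* was 28.2 to 47.6 in *Arid1a* WT and 4.22 to 5.80 in *Arid1a* cKO libraries. *Kmt2b* thus remained the more abundant of the pair in every library. The log2 difference of this ratio was -2.90 in TPM and -2.45 in CPM, without the scaling for length. Depth behind *Kmt2a* was the lowest of the 6 enzymes, with 229 to 324 counts in *Arid1a* WT and 478 to 728 in *Arid1a* cKO libraries.

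The transcripts of SETD1A and SETD1B, the main H3K4 trimethylases, changed less. *Setd1a* (Entrez 233904, chromosome 7, 127777389 to 127800122) was at 69.8, 82.7, 86.5 and 60.6 CPM in *Arid1a* WT 1 to 4 and at 52.4, 55.4, 55.8 and 53.3 CPM in *Arid1a* cKO 1 to 4. All mutant libraries were below all control libraries, by a narrow margin from *Arid1a* WT 4. It fell by 0.46 on the log2 scale (standard error 0.09, adjusted p = 0.00035). Without both *Arid1a* WT 2 and 3, *Setd1a* was still called lower. The difference was smaller there, since *Arid1a* WT 1 and 4 lay nearer the mutant mean of 54.3 CPM than *Arid1a* WT 2 and 3 did. Of the 31-base words in *Setd1a* transcripts, 51.8% also occur in another annotated gene, nearly all in the overlapping *Gm49388*, so that its count could have been split. *Setd1b* (Entrez 208043, chromosome 5, 123142040 to 123168630) was at 95.2, 122, 123 and 88.0 CPM in *Arid1a* WT and at 77.9, 88.6, 94.7 and 91.4 CPM in *Arid1a* cKO. The groups overlapped, since *Arid1a* WT 4 lay among the mutant values. Its log2 fold change of -0.28 (standard error 0.10) passed the threshold at an adjusted p of 0.0222. The call was lost without *Arid1a* WT 2 (adjusted p = 0.0863), without *Arid1a* WT 3 (0.0531) and without *Arid1a* cKO 1 (0.0808), all from edgeR. It was kept in edgeR with a block for replicate number (-0.27, adjusted p = 0.00344) and with length offsets (-0.35, adjusted p = 0.00901). The call was also kept without TMM (-0.38, adjusted p = 0.0111). Without both *Arid1a* WT 2 and 3 the log2 fold change was -0.06 (adjusted p = 0.415). In TPM, whose sum over the genes of the table was higher in *Arid1a* cKO as given below, *Setd1b* levels did not overlap. They were at 15.2 to 22.5 against 12.3 to 14.9 TPM. On that scale limma called *Setd1b* lower with log2(TPM + 1) (-0.41, adjusted p = 0.0153) and log2(TPM + 0.1) (-0.43, adjusted p = 0.0135). The TPM ratio of *Setd1b* to *Setd1a* was 0.785 to 0.850 in *Arid1a* WT and 0.902 to 1.06 in *Arid1a* cKO libraries.

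Together these differences gave a different make-up of methyltransferase RNA. The 6 genes summed to 94.2 to 156 TPM in *Arid1a* WT and 47.6 to 57.1 TPM in *Arid1a* cKO libraries. *Kmt2b* made up 36.6 ± 4.17% of that sum in *Arid1a* WT and 23.8 ± 2.90% in *Arid1a* cKO (SD, n = 4 each). The share of *Kmt2d* was 23.1 ± 2.24% against 7.61 ± 1.51%. The other 4 genes held larger shares in the mutant: *Setd1a* 27.3% against 19.2%, *Setd1b* 26.3% against 15.4%, *Kmt2c* 10.2% against 4.68%, and *Kmt2a* 4.78% against 0.98%. None of the 6 shares overlapped between genotypes. The summed TPM of the 4 KMT2 genes was 1.73 to 2.18 times that of the SETD1 pair in *Arid1a* WT libraries and 0.754 to 0.972 times in *Arid1a* cKO libraries. A larger share does not mean more RNA: *Setd1a* and *Setd1b* had lower mean TPM in *Arid1a* cKO, at 14.3 and 13.8 TPM against 23.5 and 18.9 TPM. All TPM values carry a shift between genotypes, since the genes of the table summed to 780735 to 811443 TPM in *Arid1a* WT and 880901 to 886412 TPM in *Arid1a* cKO libraries. That sum was higher in *Arid1a* cKO, whereas the median log2 difference of all genes tested was -0.05 with limma on log2(TPM + 1). Shares and ratios within a library are free of such a shift.

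**Figure D3:**
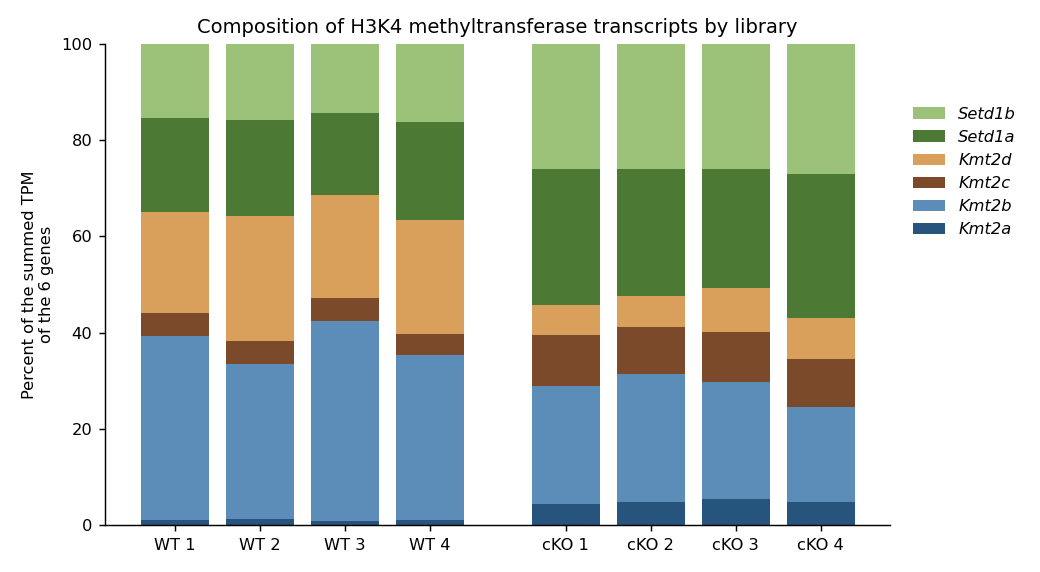
Share of each methyltransferase gene in the summed TPM of the 6 genes, in percent, with 1 stacked bar for each library. *Kmt2b* and *Kmt2d* fill less of the mutant bars and *Setd1a*, *Setd1b*, *Kmt2c* and *Kmt2a* more, in all 4 libraries of each genotype.

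Promoters are shown for the methyltransferase gene whose RNA fell most, the one whose RNA rose and the one without a call. They are shown together because all of them are rich in CpG. The windows run from 250 bases before to 50 bases after the gene start used in the RefSeq promoter table (GRCm38.p6, minus strand), written 5′ to 3′ along the gene with every CG in capitals. They are chr15:98871156-98871455 for *Kmt2d*, chr9:44881240-44881539 for *Kmt2a* and chr5:25498734-25499033 for *Kmt2c*. The start used for *Kmt2d* lies 2872 bases inside the gene record given above, so its window is not at the outermost annotated start, whereas those of *Kmt2a* and *Kmt2c* lie 63 and 72 bases inside their records.
Kmt2d: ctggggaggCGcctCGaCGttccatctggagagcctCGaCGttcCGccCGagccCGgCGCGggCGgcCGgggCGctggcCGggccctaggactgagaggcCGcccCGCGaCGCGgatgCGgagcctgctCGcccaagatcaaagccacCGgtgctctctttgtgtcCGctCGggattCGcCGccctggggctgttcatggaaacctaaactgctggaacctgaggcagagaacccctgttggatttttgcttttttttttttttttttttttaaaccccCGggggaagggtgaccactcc
Kmt2a: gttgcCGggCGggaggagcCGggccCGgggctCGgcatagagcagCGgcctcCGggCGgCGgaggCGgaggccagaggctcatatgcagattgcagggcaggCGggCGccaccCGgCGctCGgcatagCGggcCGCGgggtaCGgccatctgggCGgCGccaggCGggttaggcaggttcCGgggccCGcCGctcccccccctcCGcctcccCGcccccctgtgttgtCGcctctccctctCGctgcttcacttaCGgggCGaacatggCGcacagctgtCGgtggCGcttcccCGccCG
Kmt2c: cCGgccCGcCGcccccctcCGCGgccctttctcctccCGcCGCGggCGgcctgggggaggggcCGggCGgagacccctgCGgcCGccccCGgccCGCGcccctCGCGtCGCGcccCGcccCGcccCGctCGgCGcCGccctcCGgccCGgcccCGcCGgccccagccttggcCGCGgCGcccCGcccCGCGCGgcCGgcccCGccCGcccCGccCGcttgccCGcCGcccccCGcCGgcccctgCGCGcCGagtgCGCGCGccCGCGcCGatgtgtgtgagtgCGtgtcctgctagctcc
These windows hold 27, 36 and 56 CG, against a median of 7 over 32851 RefSeq promoters of the same length. Promoters were at hand for 6 of the 10 genes, and the other 3 windows hold 35 (*Setd1a*), 22 (*Wdr5*) and 16 (*Rbbp5*) CG, so all 6 lie above the median whichever way the gene moved. The GC box GGGCGG, searched on both strands, occurs 4 times in the *Kmt2d* window, 5 times in that of *Kmt2a*, 12 times in that of *Kmt2c* and 2 times in that of *Wdr5*. It is absent from the windows of *Setd1a* and *Rbbp5*, and 35.7% of all promoters hold at least 1. Neither CCAAT (37.4% of promoters) nor CCGGAAG (8.86%), on either strand, occurs in the 6 windows.

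Among the partner subunits, *Rbbp5* fell most. RBBP5 is the subunit that, with ASH2L, contacts the catalytic SET domain. *Rbbp5* (Entrez 213464, chromosome 1, 132477348 to 132505665) was at 17.6, 17.1, 21.0 and 18.3 CPM in *Arid1a* WT 1 to 4 and at 8.99, 9.99, 9.67 and 9.45 CPM in *Arid1a* cKO 1 to 4. The groups were well separated, and the mean fell from 18.5 ± 1.75 CPM to 9.52 ± 0.421 CPM (SD, n = 4 each; log2 fold change -0.96, standard error 0.08, adjusted p = 6.76e-08). The processed pseudogene *Gm11977* holds 11.3% of the 31-base words of *Rbbp5*. *Ash2l* (Entrez 23808, chromosome 8, 25816000 to 25847694) was the most abundant of the 10 genes, at 246 to 291 CPM in *Arid1a* WT and 219 to 231 CPM in *Arid1a* cKO libraries. It fell 1.21-fold without overlap (log2 fold change -0.27, standard error 0.05, adjusted p = 0.000427). *Wdr5* (Entrez 140858, chromosome 2, 27515147 to 27536535), whose protein is the hub that holds the core to the enzyme, was at 50.9 to 54.4 CPM and at 47.0 to 52.0 CPM. These values overlapped, and the log2 fold change was -0.10 (95% interval -0.19 to 0.003, adjusted p = 0.101). The call of *Wdr5* depended on the processing. It was called lower without *Arid1a* WT 2 and 3 (-0.13, adjusted p = 0.0396) and with library sizes not adjusted by TMM (-0.19, adjusted p = 0.00269). In TPM, whose sum over the genes of the table was higher in *Arid1a* cKO as given above, *Wdr5* levels did not overlap. They were at 29.7 to 33.4 TPM against 23.9 to 29.0 TPM. With limma *Wdr5* was called lower on log2(TPM + 1) (-0.23, adjusted p = 0.0198) and log2(TPM + 0.1) (-0.23, adjusted p = 0.0197).

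CXXC1, also known as CFP1, binds unmethylated CpG and tethers the SETD1 enzymes to chromatin. *Cxxc1* (Entrez 74322, chromosome 18, 74216212 to 74221493) was at 104, 104, 101 and 105 CPM in *Arid1a* WT 1 to 4 and at 75.9, 78.8, 76.5 and 74.9 CPM in *Arid1a* cKO 1 to 4. Its standard error was the smallest of the 10 genes, and no mutant library came near a control library. The mean fell from 104 ± 1.66 CPM to 76.5 ± 1.66 CPM (SD, n = 4 each; log2 fold change -0.44, standard error 0.04, adjusted p = 3.49e-07). The TPM ratio of *Cxxc1* to *Setd1a* was 2.57 to 3.31 in *Arid1a* WT and 2.71 to 3.14 in *Arid1a* cKO libraries, so the proportion of the tether to this enzyme overlapped between genotypes. The proportion to *Setd1b* overlapped too, at 3.18 to 4.21 and 2.90 to 3.31.

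The proportions of the core subunits to each other also shifted. The TPM ratio of *Ash2l* to *Rbbp5* was 16.3 to 20.2 in *Arid1a* WT and 26.6 to 32.0 in *Arid1a* cKO libraries, and that of *Wdr5* to *Rbbp5* was 3.07 to 3.26 against 4.73 to 6.81. The ratio of *Ash2l* to *Wdr5* overlapped, at 5.32 to 6.34 against 4.69 to 5.63. *Rbbp5* was thus the least abundant of these 3 core genes in every library, and more so in the mutant.

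In mean TPM, the order in *Arid1a* WT was *Ash2l* (181 TPM), *Cxxc1* (68.1), *Kmt2b* (45.5), *Wdr5* (31.4), *Kmt2d* (28.5), *Setd1a* (23.5), *Setd1b* (18.9), *Rbbp5* (9.84), *Kmt2c* (5.81) and *Kmt2a* (1.21). *Ash2l*, *Setd1b*, *Rbbp5* and *Kmt2c* were each apart from the next gene in the order over all 4 libraries, and the other neighbours overlapped. In *Arid1a* cKO the order was *Ash2l* (135 TPM), *Cxxc1* (42.7), *Wdr5* (26.7), *Setd1a* (14.3), *Setd1b* (13.8), *Kmt2b* (12.5), *Kmt2c* (5.36), *Rbbp5* (4.65), *Kmt2d* (4.04) and *Kmt2a* (2.53). Here *Ash2l*, *Cxxc1*, *Wdr5* and *Kmt2b* were apart from the next gene. *Kmt2d* was above *Kmt2c* in the control order and below it in the mutant order, and *Kmt2a* was last in both.

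Partners of these complexes outside the 10 genes were compared in the same fit. All 12 of the other complex subunits were called and had no overlap between genotypes, 5 higher and 7 lower, against 74% and 68.9% of all genes tested, and their median log2 fold change was -0.51. *Dpy30*, the fourth core subunit, rose from 37.4 ± 1.36 CPM to 117 ± 6.02 CPM (SD, n = 4 each; log2 fold change 1.65, standard error 0.05, adjusted p = 1.12e-12), whereas *Rbbp5* and *Ash2l* of the same core fell. The TPM ratio of *Ash2l* to *Dpy30* was 1.90 to 2.04 in *Arid1a* WT and 0.495 to 0.595 in *Arid1a* cKO libraries, so that *Dpy30* RNA exceeded *Ash2l* RNA in the mutant only. *Wdr5b*, an intronless paralogue of *Wdr5*, fell by 2.29 on the log2 scale (6.94 ± 0.391 CPM to 1.40 ± 0.322 CPM, SD, n = 4 each, from 17 to 34 counts per *Arid1a* cKO library). Of the partners of KMT2A and KMT2B, *Men1* (menin) fell by 0.83 and *Psip1*, which tethers menin complexes to chromatin, fell by 1.05, while *Hcfc1* rose by 0.94 and *Hcfc2* by 0.46. Of the partners of KMT2C and KMT2D, *Paxip1* rose by 1.12 and the H3K27 demethylase gene *Kdm6a* by 1.32, while *Pagr1a* fell by 0.69 and *Ncoa6* by 0.32. Of the SETD1 partners, *Wdr82* fell by 0.99 and *Bod1l* by 1.25, while *Hcfc1* and *Dpy30*, whose proteins also belong to the SETD1 complexes, rose. Partners of each pair of enzymes thus included genes that rose and genes that fell.

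**Figure D4:**
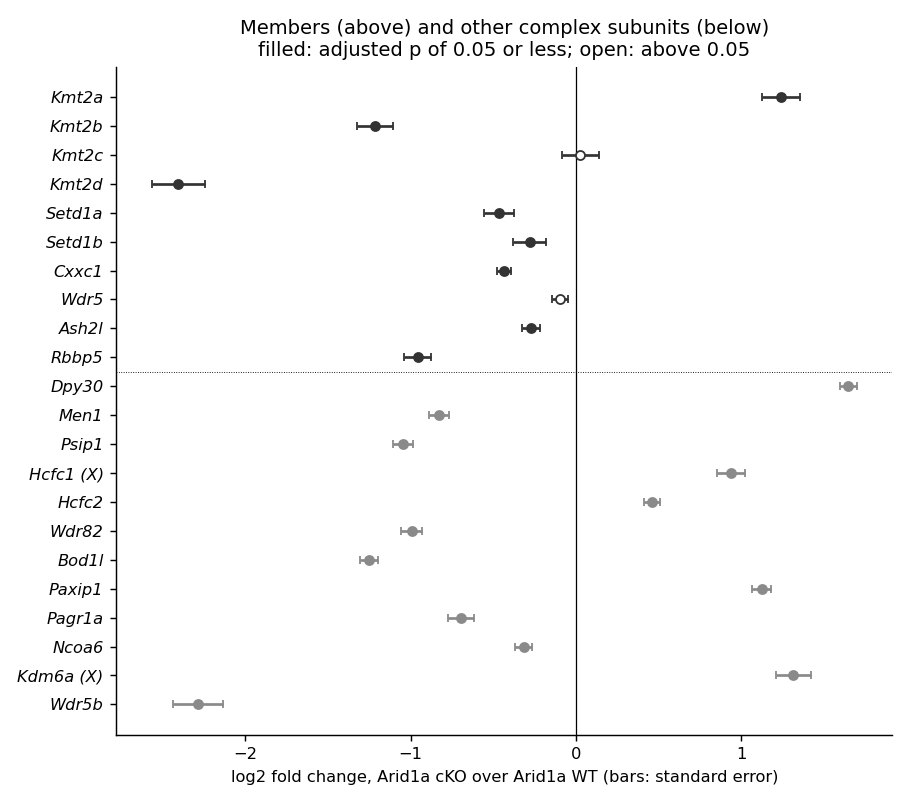
Log2 fold change of *Arid1a* cKO over *Arid1a* WT with its standard error for the 10 genes (above the dotted line) and 12 other complex subunits (below it), with (X) for X-linked genes and open points for genes that were not called. *Kmt2d* and *Wdr5b* lie farthest to the left and *Dpy30* farthest to the right.

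Over all 34 related H3K4 genes tested, 12 were called higher, 18 lower and 4 were not called, against 36.5% higher and 37.5% lower of all genes tested. The 4 X-linked genes among them (*Hcfc1*, *Kdm6a*, *Kdm5c* and *Phf8*) were all higher, as were 66.6% of the 799 X-linked genes tested, whereas all 10 methyltransferase complex genes are autosomal. Among 5 other SET-domain genes linked to H3K4, the recombination enzyme *Prdm9* rose from 3.40 ± 1.18 CPM to 11.2 ± 0.469 CPM (SD, n = 4 each; log2 fold change 1.73, standard error 0.16). *Kmt2e*, whose protein binds H3K4me3 and has no clear methyltransferase activity, fell by 1.06 on the log2 scale, and *Ash1l* fell by 0.35 (adjusted p = 0.00695), with CPM that overlapped between genotypes. Without *Arid1a* WT 2 and 3 the *Ash1l* value was -0.12 (adjusted p = 0.0912) and the call was lost. Among the 4 KDM5 genes, which encode enzymes that remove H3K4 methylation, *Kdm5c* rose by 1.34, *Kdm5b* fell by 0.83 and *Kdm5a* fell by 0.12 (adjusted p = 0.0356), a call that most alternatives did not keep. *Kdm5d*, named here after its values were seen, was not called (0.09), but was called higher without *Arid1a* WT 2 and 3 (0.43, adjusted p = 0.00298). Of 13 H3K4me3 readers tested, 5 were higher and 7 lower. The count includes *Ing5*, called lower here (-0.27) but higher with length offsets (0.73) and in TPM, and *Taf3*, called higher here (0.39) but not in TPM with limma on log2(TPM + 1) (adjusted p = 0.111). Both are named after their values were seen. *Ing3* (log2 fold change 1.59) and *Phf8* (1.03) rose most. *Phf2*, a demethylase gene of the same family as *Phf8*, was at 343 to 381 CPM in *Arid1a* WT and 40.4 to 44.9 CPM in *Arid1a* cKO libraries (log2 fold change -3.07, standard error 0.06), a larger fall than that of *Kmt2d*. *Ing4* fell by 1.95.

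Estimated counts and TPM together hold the average length of the transcripts a gene used in each library, relative to the other genes. This relative length is a separate measure from the level. For *Kmt2b* it was 2.01, 2.36, 1.80 and 2.24 in *Arid1a* WT 1 to 4 and 2.98, 2.75, 3.01 and 3.48 in *Arid1a* cKO 1 to 4 (in units of the library median), with no overlap, as for 48.2% of all genes. The log2 difference was 0.54 (standard error 0.10, adjusted p = 0.00449 from limma), so the fall of *Kmt2b* was deeper in TPM than in counts. In this test 47.5% of 16529 genes were called, *Setd1b* (0.09), *Cxxc1* (0.15) and *Ash2l* (0.07) among them. *Ash2l* lost this call when *Arid1a* WT 2 or *Arid1a* cKO 1, 2 or 4 was left out. *Kmt2d* gained a call without *Arid1a* cKO 3, and *Setd1a* without *Arid1a* cKO 4 and with a block for replicate number. However, 1266 genes with a single annotated transcript, whose length cannot differ, were shifted by 0.06 themselves. The lengths were then centred on all single-transcript genes of this test, without that limit on level, a choice made after seeing the data. With this, 12.9% of genes were called and *Kmt2b* alone of the 10 genes (0.49, standard error 0.11, adjusted p = 0.027 from limma). *Kmt2d* had a log2 difference of 0.30 (adjusted p = 0.247) on that scale. The 8 annotated *Kmt2b* transcripts range from 514 to 8469 nt, and which of them were used cannot be read from gene sums.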

How the data were processed

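RNA-seq of 4 *Arid1a* WT and 4 *Arid1a* cKO samples was used, with groups and replicate numbers from the sample labels, and every sample column of the tables was matched. The authors ran Salmon on paired-end mRNA reads and used tximport for sums per Entrez gene (mm10 annotation, versions not given in the sources used here), and deposited estimated counts that are not scaled for library size or length. The TPM values that the authors deposited are scaled by Salmon to the whole library. Their table of differential expression, with log2 fold changes and p-values from DESeq2, was not used.

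Estimated counts were rounded, since the tests need whole counts. Genes with at least 10 counts over the 8 libraries were fitted in edgeR 4.0.16 (R 4.3.3; TMM, glmQLFit, glmQLFTest, genotype as the only factor) with Benjamini-Hochberg adjustment over all 17643 genes. All adjusted p-values are from this test unless limma is named. The common biological coefficient of variation was 0.0709. Standard errors are the log2 fold change divided by the root of F. Relative transcript length was counts over TPM, centred on the library median and tested with limma 3.58.1. Scripts were tested on simulated data. Positions and promoters are from RefSeq GRCm38.p6, which matched 21036 of 21058 genes, and word sharing is from GENCODE transcripts.

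Within a genotype, no pair of libraries agreed within counting noise (chi-square per degree of freedom 4.58 to 19.1 in *Arid1a* WT and 1.74 to 3.59 in *Arid1a* cKO). The labels call them biological replicates. Whether each came from a separate purification is not given, and p-values measure only the spread between these samples.

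The 10 genes and the lists of related and marker genes were chosen with earlier results of these data known. Named genes were the 10 genes, *Arid1a*, all other complex subunits and, from each other related list, up to 2 called genes with the largest rise and 2 with the largest fall. *Prdm9* also stands in the leptotene and zygotene list, and *Meiob* stands in both that list and the pachytene list. Alternatives were DESeq2 1.42.0, other normalizations and filters, length offsets, limma on log2(TPM + 1) and log2(TPM + 0.1), the replicate block, an adjusted p of 0.01, and each library left out. Leaving out *Arid1a* WT 2 and 3 together, and the second centring of length, were chosen after seeing the data. Plots used matplotlib 3.10.9 and tables pandas 2.3.3, under Python 3.11.15.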

Additional observations from a re-analysis of the deposited data

Results flagged for a closer look

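In 7 of 84 groups of 4 libraries examined, 1 library stood apart from the other 3 by Dixon's test (the gap to the nearest library over the range), where chance gives about 4.2. *Arid1a* cKO 1 was low for *Kmt2c* (33.5 CPM against 38.2 to 39.0, ratio 0.860) and for *Kmt2d* (29.3 CPM against 39.3 to 40.5, ratio 0.886), the library in which all 6 methyltransferase genes were below the mutant mean. *Arid1a* WT 3 was low for *Cxxc1* (101 CPM against 104 to 105, ratio 0.855) and high for the TPM ratio of *Setd1b* to *Setd1a* (0.850 against 0.785 to 0.791, ratio 0.913). *Arid1a* WT 4 was low for *Kdm6a* (3.59 CPM against 4.71 to 4.85, ratio 0.889). The relative transcript length of *Kmt2a* was low in *Arid1a* WT 2 (6.37 against 7.54 to 7.59, ratio 0.957) and in *Arid1a* cKO 3 (7.12 against 7.88 to 7.91, ratio 0.967).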

How the results depend on the processing

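The calls of *Kmt2a*, *Kmt2b*, *Kmt2d*, *Setd1a*, *Cxxc1*, *Ash2l* and *Rbbp5* kept their direction and threshold under every alternative run at an adjusted p of 0.05 and at 0.01, where *Setd1b* was lost. Among the 10 genes, the lowest depth behind a call was that of *Rbbp5*, at 147 to 419 counts per library. When single libraries were left out, the log2 fold change ran from -2.52 to -2.28 for *Kmt2d*, from 1.17 to 1.32 for *Kmt2a* and from -1.29 to -1.11 for *Kmt2b*. *Kmt2a* was 0.67 with limma on log2(TPM + 1), 1.02 on log2(TPM + 0.1) and 1.17 with length offsets in edgeR, and *Kmt2b* reached -1.82 among these. *Wdr5* was called lower in 4 alternatives: without TMM (-0.19), with limma on log2(TPM + 1) (-0.23) and log2(TPM + 0.1) (-0.23), and without *Arid1a* WT 2 and 3. In that last setting 2 of the 10 genes were called higher, *Kmt2a* and *Kmt2c*. With relative length centred on single-transcript genes, 1 of the 10 genes was called in place of 4. *Ing5*, an H3K4me3 reader named here after its values were seen, reversed from -0.27 to 0.73 with length offsets, 0.59 with log2(TPM + 1) and 0.63 with log2(TPM + 0.1), and its log2 relative length differed by -0.98. The log2 difference in the ratio of *Cxxc1* to *Setd1a*, 0.027, ran from -0.0354 (without *Arid1a* WT 2) to 0.086 (without *Arid1a* WT 4) and was -0.0119 without *Arid1a* WT 3. Over 12997 genes the replicate numbers did not pair the samples (correlations of deviations of same-numbered libraries 0.16, 0.01, 0.09 and -0.14). The 6 methyltransferase genes did deviate alike by number in replicates 1 to 3. All 6 lay below the mean of the genotype in replicate 1 and above it in replicates 2 and 3. In replicate 4 all 6 lay below it in *Arid1a* WT, and 4 lay above it in *Arid1a* cKO. With the replicate block, 13100 genes were called in place of 13048, and 1 of the 10 genes was higher and 7 lower. The block lowered the standard errors of all 6 methyltransferase genes, that of *Kmt2d* from 0.16 to 0.083. It raised those of *Cxxc1* (0.043 to 0.048) and *Wdr5* (0.050 to 0.054). The median log2 fold change of all genes was -0.02, and -0.12 without TMM.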
